A study of Homo sapiens with 2 samples.

Results

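The stem cell and tumorsphere markers examined here were 10 genes, SOX2, POU5F1, NANOG, LIN28A, LIN28B, MSI1, MSI2, PROM1, NES and BMI1, of the 19881 protein-coding genes in the annotation. Each gene was given the OTX2 peaks that overlapped its GENCODE gene record in GRCh38 or the 50 kb on either side, which came to 173 of the 137412 deposited peaks (0.126%) in 1792.8 kb of sequence. TSS peaks were those touching a window that began 5 kb before the 5′ end of the record and closed 2 kb after it, and all other peaks were called distal. By this definition, which uses only the 5′ end of each gene record, the TSS peaks had low fold enrichment and the strong peaks were distal. Some strong peaks lay near other annotated transcript starts. Around any such start, peaks with fold enrichments of 22.9 at PROM1, 23.6 at MSI1 and 21.1 at MSI2 fell in the same window. There were 10 TSS peaks, in PROM1, BMI1, MSI2 and LIN28A, and their fold enrichment over local input ran from 2.72 to 6.50. The 34 peaks with a fold enrichment of at least 10 were all distal, as were 94.2% of all 173 peaks. Of the 34, 26 lay at MSI2 and PROM1, which held 96 of the 173 peaks (55.5%). SOX2 stood at the other end, with 1 peak in its whole window.

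D283 is an established medulloblastoma cell line, here grown as tumorspheres in serum-free neural medium with EGF and bFGF at 20 ng/ml each. The cells were OTX2-expressing controls without OTX2 knockdown, crosslinked for 10 min in 1% formaldehyde. In ChIP-seq the DNA crosslinked to a protein is pulled down with an antibody and sequenced, and the 2 libraries were 1 made with an OTX2 antibody and 1 of input chromatin, which had no pull-down. There was 1 library per group, so the peaks carried no replicate error and no test between genes was made. A peak list measures no RNA, so the expression of the markers and the identity of the cells could not be checked from these data.

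OTX2 is a homeodomain transcription factor of the developing forebrain, midbrain and cerebellum, and its high expression is a known feature of Group 3 and Group 4 medulloblastoma. The markers belong to several layers of stem cell control. SOX2, OCT4 (the product of POU5F1) and NANOG are transcription factors of pluripotency, the LIN28 and Musashi proteins bind RNA, BMI1 acts on chromatin, and PROM1 (CD133) and nestin are used to recognise neural stem cells and tumour cells that grow as spheres.

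The deposited pileup is the fragment coverage at a peak summit, scaled so that 1 ChIP fragment counts as 0.735, and the heights below are given as fragments. Fold enrichment is the pileup divided by the local input, with 1 added to each. The 95% Poisson intervals given with the heights cover counting error only. Over all 137412 peaks the median height was 53 fragments (range 15 to 461) and the median fold enrichment was 6.10, with the 90th percentile at 17.1. The peaks of the marker genes had a median height of 54 fragments and a median fold enrichment of 5.59. A fold enrichment of at least 10 was reached by 19.7% of them and by 26.3% of all peaks, so the marker genes as a group did not hold a larger share of strong peaks.

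A TSS peak was present in 4 of the 10 marker genes, against 57.2% of all protein-coding genes. When the window was set around any annotated transcript start, LIN28B and MSI1 were added and 6 of 10 had a peak, against 66.6%. At least 1 peak in the extended window was found for 10 of 10, against 94.1%. Among the genes with a TSS peak, the strongest such peak had a median fold enrichment of 6.39. The values of PROM1 (6.50), MSI2 (6.06), LIN28A (5.21) and BMI1 (4.45) stood at percentiles 51.0, 46.2, 35.8 and 23.4 of that distribution. At the 5′ ends of the gene records, the TSS peaks were thus of middling or low fold enrichment for this library. Their −log10 q-values ran from 2.95 at BMI1 to 26.2 at MSI2. The transcript chosen changes this: with any annotated transcript start, the strongest TSS peak rose to 22.9 at PROM1 and 21.1 at MSI2, MSI1 gained one of 23.6, and LIN28A and BMI1 kept their values. Distal peaks had a median fold enrichment of 5.64, against 4.14 for TSS peaks. They made up 94.2% of the peaks of the marker genes, but the TSS windows covered only 3.90% of the sequence. Per 100 kb there were 14.3 peaks in the TSS windows and 9.46 in the rest. Over all protein-coding genes, with each gene counted in full where windows overlap, these values were 12.8 and 5.30, and 90.6% of peaks were distal.

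**Figure D1:**
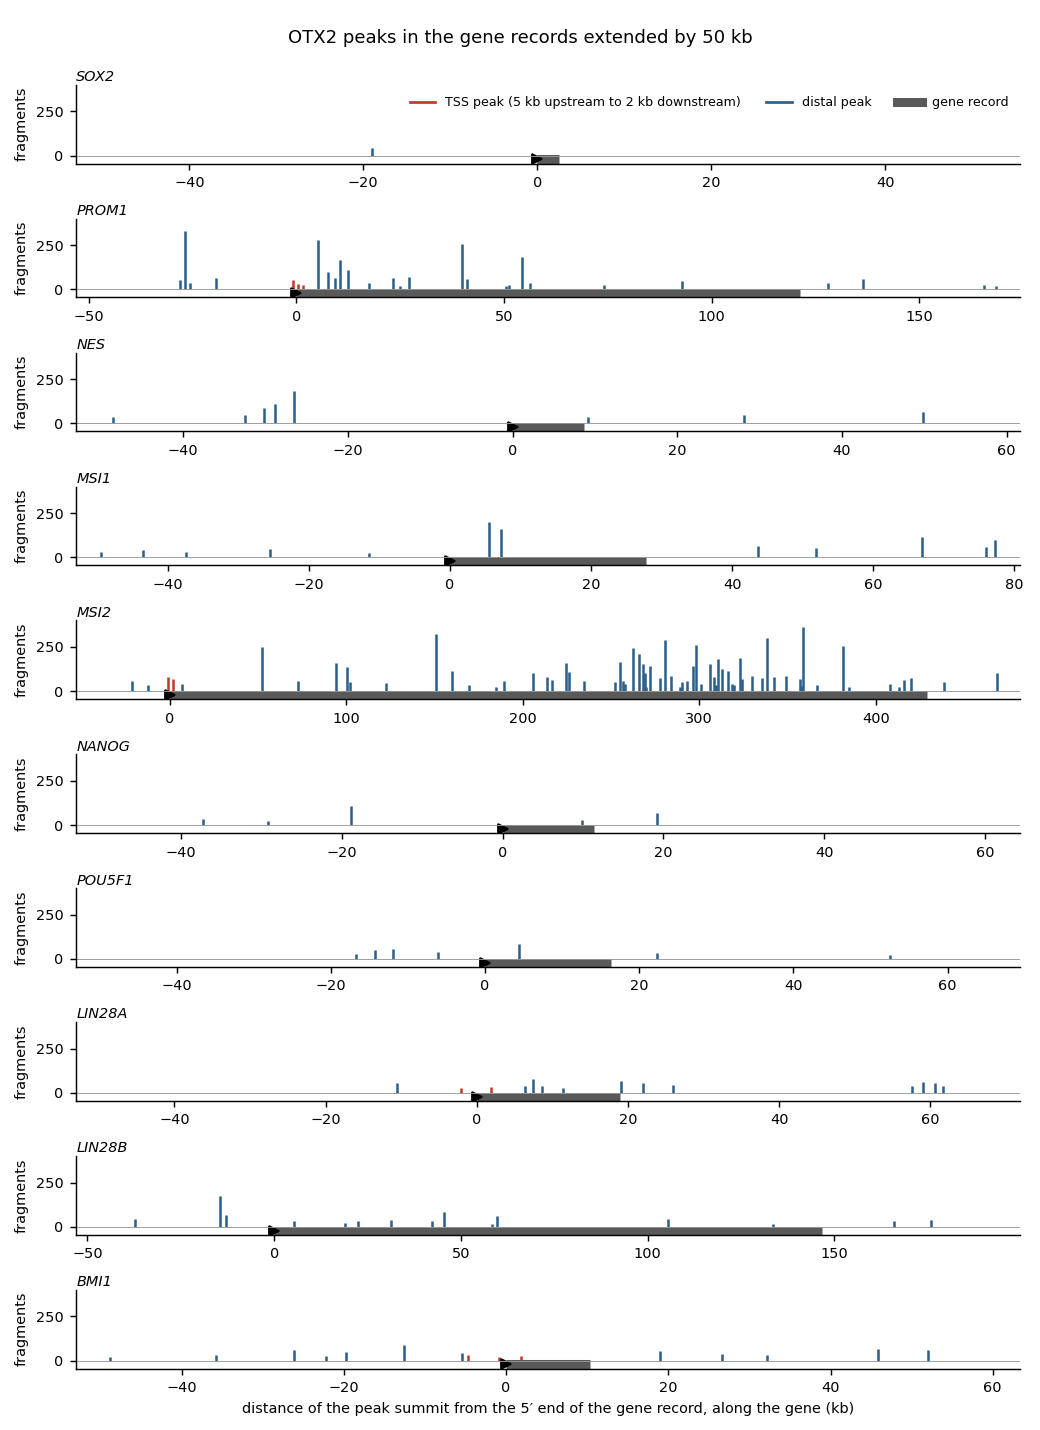
Height of each OTX2 peak, in ChIP fragments at the summit, against its distance in kb from the TSS of the gene record, with positive values running along the gene and a distance scale of its own in each panel. Red lines are TSS peaks, blue lines distal peaks and grey bars the gene records. SOX2 has 1 peak, MSI2 has 68 and PROM1 has 28, and the highest lines at PROM1 and MSI2 (328 and 365 fragments) lie away from the TSS.

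SOX2, a transcription factor that keeps neural progenitors undifferentiated, had no peak in its single-exon gene record (chr3:181711925-181714436, + strand). The only peak of its 102.5 kb window lay 19.0 kb upstream, at chr3:181692797-181693088. It held 43 fragments (31.1 to 57.9) at a fold enrichment of 5.74, below the median of all peaks. The next peak was 82.6 kb from the gene record. SOX2 had 0.975 peaks per 100 kb, at percentile 11.6 of protein-coding windows, while chromosome 3 had 5.22. Both SOX2 and its upstream peak lie within the record of the long non-coding RNA gene SOX2-OT (chr3:180989762-181836880). SOX2-OT was looked at after these values were seen. It held 19 peaks over 847.1 kb, or 2.24 per 100 kb, of which 3 had a fold enrichment of at least 10. The strongest of these (fold enrichment 30.4, 330 fragments) was 720.3 kb from the SOX2 TSS, near the 5′ end of SOX2-OT.

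POU5F1, which encodes the pluripotency factor OCT4, had no TSS peak at its gene record (chr6:31164337-31180731, − strand) and 7 distal peaks. The strongest lay 11.9 kb upstream and reached a fold enrichment of 8.16 with 54 fragments (40.6 to 70.5). Another upstream peak, 14.3 kb away, had 49 fragments and a fold enrichment of 7.43. The highest peak, with 82 fragments and a fold enrichment of 7.66, had its summit 4.4 kb inside the gene record but before the start of the canonical transcript. The other 4 peaks had fold enrichments from 2.31 to 4.13. No POU5F1 peak reached a fold enrichment of 10, and its window had 6.01 peaks per 100 kb, close to the 5.08 of chromosome 6.

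NANOG, a homeodomain factor of pluripotent cells, likewise lacked a TSS peak. Its gene record (chr12:7787794-7799146, + strand) and flanks held 5 peaks, or 4.49 per 100 kb against 5.63 on chromosome 12. The strongest lay 18.9 kb upstream of the TSS, at chr12:7768628-7769272, at a fold enrichment of 15.8 with 106 fragments (86.8 to 128.2). That summit was inside the neighbouring gene NANOGNB, whose TSS is the nearest protein-coding TSS. A peak 19.2 kb downstream of the TSS had 69 fragments and a fold enrichment of 8.62, and a peak 37.2 kb upstream, close to the CLEC4C TSS, had 34 fragments and a fold enrichment of 5.21. Within the gene record the single peak overlapped an exon and was weak, with 30 fragments and a fold enrichment of 4.61.

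A stretch upstream of the RefSeq start of NANOG is shown because it holds a core motif of OTX-type homeodomains without a peak. It lies inside the gene record used above, downstream of the 5′ end of that record. Both strands were searched for TAATCC and TAATCT in the RefSeq promoter windows (GRCh38.p14, 250 bases before to 50 after each start), and 12.8% of 34943 windows held at least 1 of them. These motifs differ in the last letter and cannot overlap at the same position. Among windows with a motif 31.2% overlapped a peak, and among those without 29.7%. Of the marker genes, 7 matched 13 windows, and 2 windows held a motif, at NANOG and PROM1. The 250 bases before the RefSeq start of NANOG (chr12:7789152-7789401, + strand) follow, with the motif in capitals. It reads GGATTA on this strand, the reverse complement of TAATCC, at chr12:7789318-7789323, and the nearest peak was 8116 bp away.
NANOG upstream: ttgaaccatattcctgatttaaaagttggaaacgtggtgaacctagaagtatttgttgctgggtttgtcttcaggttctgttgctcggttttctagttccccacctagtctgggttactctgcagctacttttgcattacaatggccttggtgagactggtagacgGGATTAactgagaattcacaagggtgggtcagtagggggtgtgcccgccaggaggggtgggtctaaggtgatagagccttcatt

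LIN28A, an RNA-binding protein that blocks maturation of the let-7 miRNAs, had both TSS and distal peaks. Its gene record (chr1:26410817-26429728, + strand) and flanks held 14 peaks, or 11.8 per 100 kb against 5.49 on chromosome 1, at percentile 93.0 of protein-coding windows. The TSS peaks were low. One lay 2143 bp upstream at a fold enrichment of 3.89 (25 fragments, 16.2 to 36.9), and the other lay in intron 2, 1887 bp downstream, at a fold enrichment of 5.21 (34 fragments, 23.5 to 47.5). The strongest distal peak, with 68 fragments and a fold enrichment of 10.2, was 19.1 kb downstream of the TSS just past the 3′ end of the gene. The next, at 58 fragments and a fold enrichment of 8.75, was 10.6 kb upstream. Another, with 57 fragments and a fold enrichment of 8.61, lay 484 bp inside DHDDS, the adjoining gene. The other 9 distal peaks had fold enrichments from 3.48 to 7.97. LIN28A thus had many peaks and no high one: its maximum of 78 fragments was below that of every other marker gene except SOX2. Counting only peaks with a fold enrichment of at least 5 left 10 LIN28A peaks, or 8.41 per 100 kb, at percentile 95.8.

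LIN28B, the paralogue with the same let-7 target, had 15 peaks over a much longer window (gene record chr6:104936616-105083332, + strand), or 6.08 per 100 kb. None was within the TSS window of the gene record. The strongest was 14.5 kb upstream, at chr6:104921850-104922822, at a fold enrichment of 14.0 with 173 fragments (148.2 to 200.8). Intron 2 held a peak of 81 fragments and a fold enrichment of 11.4, 45.4 kb from the TSS. A further upstream peak, 37.3 kb away, had 44 fragments and a fold enrichment of 6.67. At the start of the canonical transcript, which lies inside the gene record, peaks 1581 bp upstream and 2028 bp downstream had 21 and 32 fragments and fold enrichments of 2.76 and 4.16. At another protein-coding transcript start a peak 1025 bp downstream had 35 fragments and a fold enrichment of 5.35. Whether LIN28B counted as having a TSS peak therefore depended on the transcript chosen, and the peaks that decided it were weak.

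MSI1, the Musashi protein that binds mRNA in neural stem cells and represses NUMB, had no TSS peak at its gene record (chr12:120341330-120369164, − strand) but had strong peaks a few kb inside the gene. Its window held 12 peaks, or 9.39 per 100 kb. In intron 6, at chr12:120361376-120362162, a peak of 159 fragments (135.2 to 185.7) had a fold enrichment of 23.6, the highest of the gene. In intron 5, at chr12:120363370-120363936, a peak of 197 fragments (170.4 to 226.5) had a fold enrichment of 16.2. Their summits were 7.2 and 5.5 kb from the TSS of the gene record. A transcript with no annotated coding sequence starts inside the intron 6 peak region, 437 bp downstream of the intron 6 summit and 2179 bp downstream of the intron 5 summit along the gene. The third peak by fold enrichment (10.5, 113 fragments) was 81 bp upstream of the SIRT4 TSS, 66.9 kb from the MSI1 TSS. The other 9 distal peaks had fold enrichments from 3.58 to 9.93.

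MSI2, the second Musashi gene, had the most peaks. Its gene record of 428.8 kb (chr17:57255851-57684689, + strand) and flanks held 68 peaks, 63 of them with the summit inside the gene. The density was 12.9 per 100 kb, at percentile 95.3 of protein-coding windows, while chromosome 17 had 5.55. Inside the gene it was 14.7 per 100 kb, at percentile 86.8 of protein-coding gene records taken alone, and in the flanks there were 5 peaks per 100 kb. OTX2 peaks at MSI2 were therefore denser within the gene than beside it. The median local input of the MSI2 peaks was 7.18, above the 5.00 of all peaks and near the 6.67 of chromosome 17, and its part in the number of peaks was not tested.

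Neither TSS peak of MSI2 was among the strong peaks of the gene. At 1281 bp upstream a peak of 81 fragments (64.3 to 100.7) reached a fold enrichment of 6.06. A peak 1793 bp downstream had 69 fragments (53.7 to 87.3) but a fold enrichment of 2.72, at percentile 3.11 of all peaks, over a local input of 18.0. Both were far below the strongest intronic peaks. In intron 5, 52.5 kb from the TSS at chr17:57307976-57308749, a peak of 249 fragments (219.0 to 281.9) had a fold enrichment of 27.0. In intron 7, 298.2 kb from the TSS at chr17:57553660-57554757, a peak of 262 fragments (231.2 to 295.7) had a fold enrichment of 26.5. In intron 6, at chr17:57406269-57407007, a peak of 323 fragments (288.7 to 360.2) had a fold enrichment of 21.1, and its summit was 143 bp upstream of the start of an internal transcript with no annotated coding sequence. The highest peak by fragments, 365 (328.5 to 404.4) at a fold enrichment of 20.7, lay in intron 8. In all, 19 MSI2 peaks had a fold enrichment of at least 10. For 46 of the 68 peaks the nearest protein-coding TSS was not that of MSI2 but that of CCDC182, which lies beyond its last exon.

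The stretch shown for MSI2 is the only RefSeq promoter window found inside one of its intronic peaks. It precedes the start of LOC101927557, an uncharacterised gene on the opposite strand, and lies wholly within the peak chr17:57523204-57524592, which had 155 fragments and a fold enrichment of 12.8. That summit was also 83 bp upstream of an internal MSI2 transcript start. The 250 bases (chr17:57523598-57523847, − strand) held neither motif, so nothing is in capitals, and their GC content was 44.0%.
LOC101927557 upstream: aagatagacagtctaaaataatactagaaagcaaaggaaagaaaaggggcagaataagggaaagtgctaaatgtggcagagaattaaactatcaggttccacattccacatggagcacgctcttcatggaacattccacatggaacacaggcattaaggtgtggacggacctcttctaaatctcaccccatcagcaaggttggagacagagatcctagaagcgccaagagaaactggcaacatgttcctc

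PROM1, which encodes the surface glycoprotein CD133, had 28 peaks at its gene record (chr4:15963076-16084378, − strand) and flanks, or 12.7 per 100 kb, at percentile 94.9. Chromosome 4 had 4.83. Its 3 TSS peaks were 693 bp upstream, 399 bp downstream over the first exon, and 1688 bp downstream in intron 1. They had 53 (39.7 to 69.3), 31 (21.1 to 44.0) and 23 (14.6 to 34.5) fragments, with fold enrichments of 6.50, 3.97 and 3.33. The strongest peak of all the marker genes was 26.7 kb upstream of PROM1, at chr4:16110789-16111432. It had 328 fragments (293.5 to 365.5) over a local input of 4.00, close to the floor of 3.98, with a fold enrichment of 48.4, at percentile 99.98 of all peaks, and a −log10 q-value of 324. Its nearest protein-coding TSS was that of PROM1.

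Within PROM1, a peak of 278 fragments (246.3 to 312.7) in intron 1, at chr4:16078268-16080241, had a fold enrichment of 22.9. In intron 2, 40.0 kb from the TSS, a peak of 257 fragments (226.5 to 290.4) had a fold enrichment of 17.3. The other 22 distal peaks had fold enrichments from 2.33 to 14.9, and 7 of the 28 peaks reached 10. The intron 1 peak was 5.2 kb from the 5′ end of the gene record, but its summit was 3242 bp upstream of the start shared by several protein-coding PROM1 transcripts. Relative to those transcripts it counted as a TSS peak, which raised the strongest TSS peak of PROM1 from a fold enrichment of 6.50 to 22.9.

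PROM1 sequences are shown at 2 of its alternative starts, one beside a peak and one under a peak. The 250 bases before a RefSeq start in the gene (chr4:16076119-16076368, − strand) hold GGATTA, the reverse complement of TAATCC, in capitals. The motif is at chr4:16076225-16076230, its centre 109 bp before that start, and a peak of 100 fragments and fold enrichment 9.32 began 237 bp further upstream of the window. The 220 bases at chr4:16083758-16083977 (− strand) lie under the peak over the first exon, from the first base after that exon to the far edge of the peak. They hold neither motif, and their GC content was 70.5%, against a median of 58.7% over all windows.
PROM1 internal start: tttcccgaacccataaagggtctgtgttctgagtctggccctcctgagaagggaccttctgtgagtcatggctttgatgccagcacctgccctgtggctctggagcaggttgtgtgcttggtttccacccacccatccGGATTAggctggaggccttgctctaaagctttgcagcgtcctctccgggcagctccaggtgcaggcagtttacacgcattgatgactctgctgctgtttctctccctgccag
PROM1 under the first-exon peak: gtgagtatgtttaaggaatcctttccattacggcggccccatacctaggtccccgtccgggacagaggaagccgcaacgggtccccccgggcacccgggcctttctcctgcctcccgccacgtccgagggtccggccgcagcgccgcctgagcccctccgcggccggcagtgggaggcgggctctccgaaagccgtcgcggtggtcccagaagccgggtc

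NES encodes nestin, the intermediate filament of neural progenitors. Its gene record (chr1:156668763-156677407, − strand) held no peak, and its 8 peaks were all in the flanks, at 7.36 per 100 kb of window and percentile 70.9. With 100 kb on each side the density was 11.5 per 100 kb, at percentile 94.8. The 3 strongest were at the neighbouring gene CRABP2. They lay 26.5, 30.2 and 28.8 kb upstream of NES, with 183 (157.4 to 211.5), 86 (68.8 to 106.2) and 109 (89.5 to 131.5) fragments and fold enrichments of 13.6, 8.25 and 8.20. Their distances from the CRABP2 TSS were 1895, 1770 and 433 bp. For NES itself the TSS was the nearest protein-coding TSS of 1 peak only, 9.1 kb downstream, with 37 fragments and a fold enrichment of 5.16. The median local input of the NES peaks, 7.39, was the highest of the marker genes, against 6.00 on chromosome 1.

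BMI1, a subunit of Polycomb repressive complex 1, had the densest window of the marker genes but low peaks. Its gene record (chr10:22321099-22331484, + strand) and flanks held 15 peaks, or 13.6 per 100 kb at percentile 96.4, while chromosome 10 had 4.76. Counting only peaks with a fold enrichment of at least 5 left 3.62 per 100 kb, at percentile 59.0. The gene record alone held 1 peak, or 9.63 per 100 kb, at percentile 74.45 of protein-coding gene records taken alone. The nearest protein-coding TSS was that of BMI1 for 2 of the 15 peaks and that of a neighbouring or overlapping gene for the rest. The TSS peaks were 4650 and 905 bp upstream and 1885 bp downstream in intron 1. They had 33 (22.7 to 46.3), 23 (14.6 to 34.5) and 28 (18.6 to 40.5) fragments, with fold enrichments of 4.45, 2.99 and 4.32. The strongest of them was 61 bp inside the readthrough gene COMMD3-BMI1, whose record overlaps BMI1, so it could be assigned to COMMD3 as well. The 3 strongest distal peaks had fold enrichments of 6.76, 5.97 and 5.36 with 63, 88 and 35 fragments, and those of 6.76 and 5.36 were within SPAG6. No BMI1 peak reached a fold enrichment of 10.

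**Figure D2:**
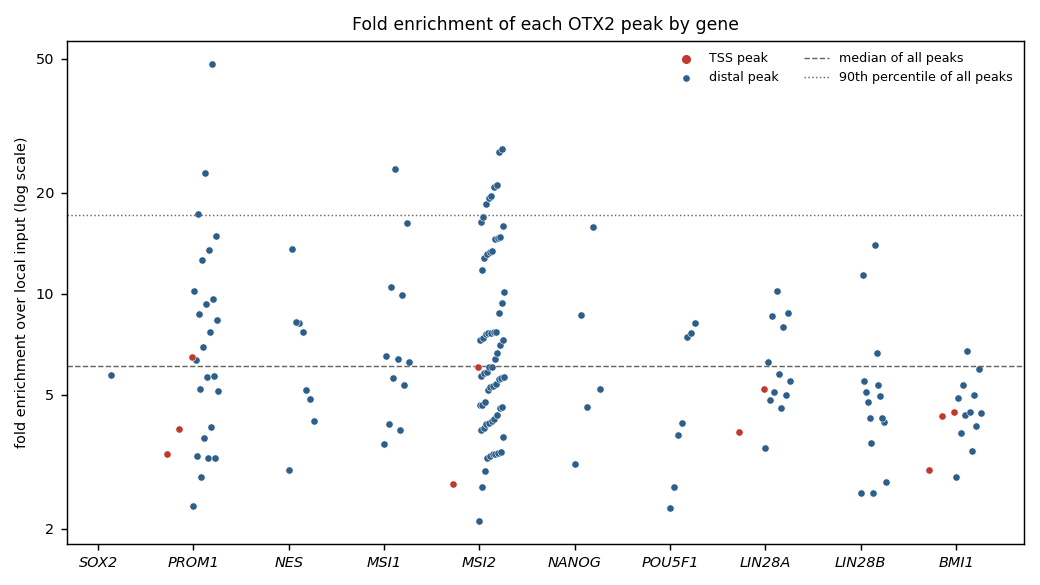
Fold enrichment of each of the 173 peaks on a log axis, by gene, with TSS peaks in red and distal peaks in blue. The dashed and dotted lines are the median (6.10) and the 90th percentile (17.1) of all 137412 peaks. All red points but the highest of PROM1 (6.50) lie below the dashed line, and the points above the dotted line belong to PROM1, MSI1 and MSI2.

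Set side by side, the marker genes fell into several kinds of arrangement. PROM1, MSI2, MSI1 and LIN28B had intronic peaks of 10-fold enrichment or more, the highest of each at 22.9, 27.0, 23.6 and 11.4. LIN28B, NANOG, NES and PROM1 had such a peak upstream of the gene, at 14.0, 15.8, 13.6 and 48.4, and those of NANOG and NES lay in a neighbouring gene. BMI1 had many peaks in its window, none above a fold enrichment of 6.76. LIN28A also had many, none above 78 fragments, but its strongest reached a fold enrichment of 10.2. POU5F1 had a few of moderate size, and SOX2 and NES had none in the gene. Of the 173 peaks, 102 had the summit inside the gene of the window, 40 upstream and 31 downstream. Of the 102, with introns numbered in the canonical transcript, 96 were in introns, 3 were over exons (1 each in PROM1, MSI2 and NANOG), and 3 at POU5F1 and LIN28B lay before the start of that transcript. For 76 peaks the nearest protein-coding TSS was that of the marker gene and for 97 that of another gene, so a peak near a marker cannot be taken as a peak of that marker. The 34 peaks with a fold enrichment of at least 10 were 5.2 to 468.7 kb from the TSS of the gene record, and 27 of them were inside the gene.

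**Figure D3:**
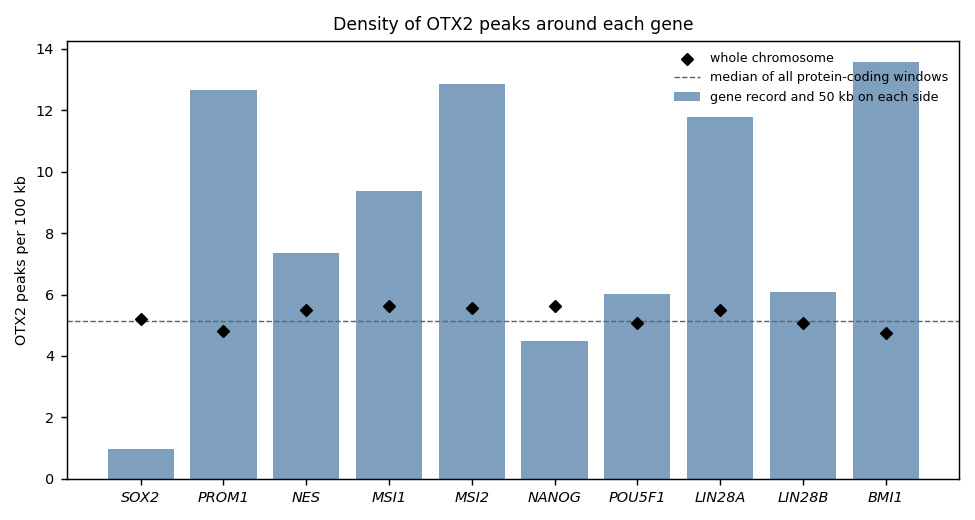
Peaks per 100 kb in the gene record extended by 50 kb on each side (bars), with the density of the whole chromosome (diamonds) and the median of all protein-coding windows (dashed line, 5.12). BMI1 (13.6), MSI2 (12.9), PROM1 (12.7) and LIN28A (11.8) are the highest bars and SOX2 (0.975) the lowest.

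The gap from the TSS to the nearest peak restates the TSS calls as a distance. It was 0.2 kb for PROM1, 0.7 kb for BMI1, 1.1 kb for MSI2 and 1.6 kb for LIN28A. It was 4.0 kb for POU5F1, 4.4 kb for LIN28B, 5.2 kb for MSI1, 8.8 kb for NES, 9.7 kb for NANOG and 18.8 kb for SOX2. The median over all protein-coding genes was 1.48 kb. The peak closest to the edge of a TSS window was at BMI1, chr10:22315615-22316040, which ended 59 bp outside it and had 45 fragments and a fold enrichment of 3.41. The next outside was a POU5F1 peak, 834 bp away, with 38 fragments and a fold enrichment of 4.13. The closest inside were the peaks 1793 bp downstream of MSI2, 1887 bp downstream of LIN28A and 1885 bp downstream of BMI1. At the 50 kb edge, the BMI1 window ended between a peak 48.7 kb from the gene (fold enrichment 2.86) and another at 50.4 kb (3.59), and the NES window between peaks at 48.3 kb (2.99) and 50.8 kb (5.26).

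**Figure D4:**
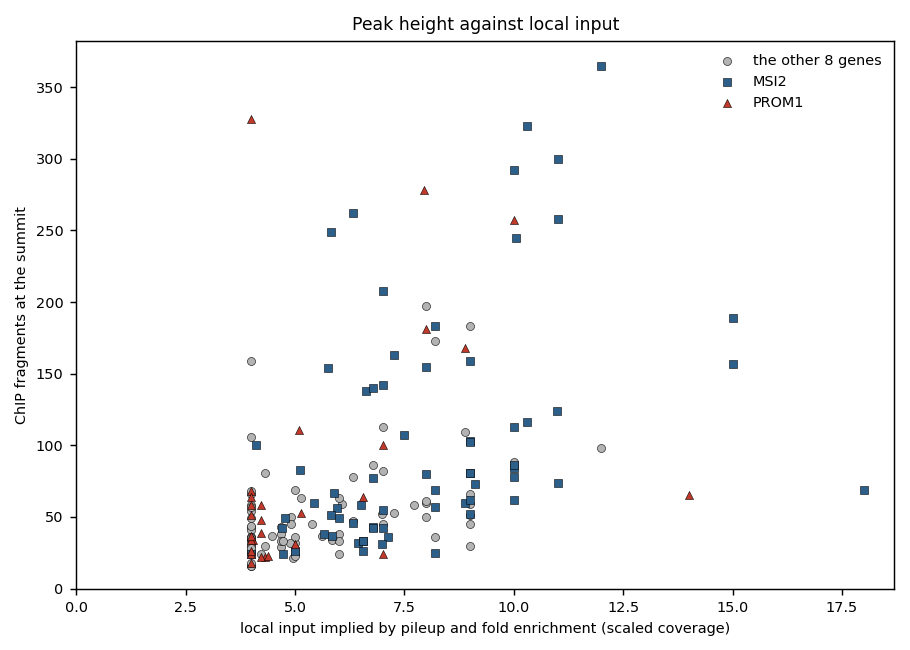
Height of each of the 173 peaks, in ChIP fragments at the summit, against the local input implied by its pileup and fold enrichment. The PROM1 peak of 328 fragments stands at a local input of 4.00, the MSI2 peak of 365 fragments at 12.0, and the MSI2 TSS peak with a local input of 18.0 is the point farthest to the right.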

How the data were processed

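Alignment to GRCh38 by the authors used bowtie2 2.2.4, and their peak caller was MACS2 2.1.0.20140616 in narrow mode, at a q-value cutoff of 0.05, an effective genome size of 2700000000 and 1 fragment kept per position, using 61259377 ChIP and 22521186 input fragments. The peaks were stated to be masked for blacklisted regions. The deposited pileup is a signal, the scaled coverage at the summit. The deposited fold enrichment is a ratio to local input, and the deposited −log10 value used is that of the q-value.

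Heights in fragments are pileup divided by 0.735 (100% within 0.02 of a whole fragment), and local input was computed back from pileup and fold. ChIP fragments outnumbered input fragments by 2.72 to 1, which limits the precision of fold enrichment. Gene positions came from the GRCh38 positions recorded in GENCODE 44, and no coordinate was converted. A peak counted with at least 1 bp of overlap. Percentiles describe the values and are no tests. Counting in the TSS windows was checked against a direct count on made-up peaks at random positions. Tables were handled in pandas 2.3.3 with numpy 2.4.6 under Python 3.11.15, intervals came from scipy 1.17.1, and plots from matplotlib 3.10.9.

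The members, the lists and the alternatives were chosen with earlier results of these data known. For each marker the TSS peaks and the 3 distal peaks of highest fold enrichment are given, and from each further list at most 4 genes with the strongest TSS peak, together with the protein-coding neighbours nearest to a named peak. Peaks named outside this rule were chosen after their values were seen. Alternatives were stricter q-value or fold cutoffs, a summit inside the window, other TSS definitions, other windows and all annotated genes as neighbours. The canonical transcript, RefSeq records and a list without the peaks whose local input was at least 3 times the floor were added after seeing the data. RefSeq promoter windows for LIN28A, MSI1 and POU5F1 were not used here. Sequence under peaks was read only where a RefSeq promoter window covered it.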

Additional observations from a re-analysis of the deposited data

How the results depend on the processing

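Of the marker genes, 4 had a TSS peak in the analysis as reported, and the number ranged from 2 to 6 under the other settings. It was 2 (BMI1 and PROM1) in a window reaching 1 kb each way, 3 with a fold enrichment of at least 5 (without BMI1), 5 with the canonical transcript and 6 with any transcript. The share of all protein-coding genes, 57.2% as reported, was 52.0% at a −log10 q of at least 5, 38.5% when fold enrichment had to reach 5, 56.3% when the summit itself had to fall in the window, 46.9% within 1 kb, 66.6% with any transcript, 58.5% with the canonical transcript and 56.0% once peaks over very high local input (3 times the floor or more) were dropped. The 173 peaks became 105 at a fold enrichment of at least 5 and 103 in the gene records alone. At a fold enrichment of at least 5 the median density of the marker windows fell from 8.38 to 4.11 peaks per 100 kb. Over all protein-coding windows the same cutoff took the median from 5.12 to 2.94. With all annotated genes as neighbours, the marker was nearest to 36 peaks in place of 76. The strongest TSS peak of PROM1 went from a fold enrichment of 6.50 to 22.9 and that of MSI2 from 6.06 to 21.1 with any transcript. The percentile of SOX2 was 8.65 with 100 kb on each side and 20.4 at a fold enrichment of at least 5, and that of NES was 94.8 with 100 kb on each side. No paired analysis was possible because each group is a single library with no test. Depth, duplicates and the single antibody limit every value, and no setting stands in for a replicate.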

Other observations

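Genes related to the markers were counted in the same way, from lists chosen with earlier results of these data known. The counts are descriptions beside the 57.2% of all protein-coding genes. Of 18 further genes of the Polycomb repressive complex 1 family, not all of them subunits of the complexes that hold BMI1, 16 had a TSS peak (88.9%). CBX2 and PCGF3 had none. The strongest were at PHC2 (fold enrichment 20.9, 187 fragments), CBX6 (13.6, 147 fragments), PCGF1 (12.8, 106 fragments) and CBX8 (12.1, 119 fragments). When fold enrichment had to reach 5, the number was 10 (55.6%), against 38.5% of all protein-coding genes. Of 14 genes of the LIN28 and let-7 pathway, 13 had a TSS peak (92.9%), and TRIM71 had none. Here DICER1, the RNase that cuts miRNA precursors, had a peak of fold enrichment 29.5 with 199 fragments, HMGA1, a chromatin protein whose family is regulated by let-7, had 17.3, ARID3B had 14.5 and XPO5, the exporter of miRNA precursors, had 10.2. LIN28A itself had 5.21, and LIN28B had no TSS peak at its gene record.

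Of 22 other pluripotency genes, 8 had a TSS peak (36.4%), the strongest at the transcription factors KLF4 (15.9), SALL4 (12.6) and KLF5 (9.60) and at DPPA3 (8.61). Of 20 genes on a neural list, mostly stem and progenitor markers, 19 had a recorded GRCh38 position. Of these 10 had a TSS peak (52.6%), led by CD44 (14.0), ITGA6 (10.5), NUMB (8.73) and NR2E1 (8.02). The list also held RBFOX3 and ELAVL4, which are genes of neurons, and neither had a TSS peak. NUMB is the mRNA that Musashi proteins are known to repress. At a fold enrichment of at least 5 the neural list had 6 (31.6%), against 38.5%, and within 1 kb of the TSS the pluripotency list had 5 (22.7%), against 46.9%. With any transcript start the neural list had 13 (68.4%) and the pluripotency list 9 (40.9%), against 66.6%. No list was tested against the other genes.

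When peaks no more than 12.5 kb apart were joined into runs, a distance chosen after the values were seen, the 137412 peaks formed 55961 runs with a median of 2 peaks. A run within MSI2, chr17:57507833-57622580, held 38 peaks over 114.7 kb with 4356 fragments at their summits. It ranked 10 by number of peaks and 6 by fragments. The PROM1 run held 18 peaks over 57.4 kb and ranked 168 by number of peaks, and the longest LIN28A run held 10 peaks over 37.1 kb.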
